A study of Mus musculus with 12 samples.

Results

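Autophagy genes were followed in the ventral tegmental area (VTA) of the mouse at 2, 10 and 18 months of age. A gene was included when its symbol began with Atg and a number, or when it was 1 of 21 further named genes of the pathway. Only probe sets annotated to a single gene were taken, which gave 38 of 18193 genes on the array, with 90 of the 45037 probe sets tested. Of the 38 genes, 18 carried an Atg symbol and 20 were taken by name, while Optn had no probe set that met the rule. There were 28 genes with more than 1 probe set, up to 6 for Wipi1.

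The animals were wild-type C57 mice (C57BL/6 in the study's methods), aged 2 months (young), 10 months (middle aged) or 18 months (late-middle aged), with no treatment or engineered allele. The whole VTA, a midbrain nucleus with dopaminergic neurons, was dissected, so neurons, glia and vessels were measured together. There were 4 Affymetrix arrays for each age, and each array held RNA pooled from 5 mice. Replicates 3 and 4 at 2 months were nearly identical (correlation 0.998, with 1 probe set differing by more than 1 on the log2 scale, against 85 to 4905 in the 17 other pairs within an age). They were therefore averaged and counted as 1 sample, leaving 3, 4 and 4 samples at 2, 10 and 18 months.

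Autophagy encloses parts of the cytoplasm in a double membrane, the autophagosome, and delivers them to lysosomes for breakdown. A kinase complex starts the process, a lipid kinase marks the membrane, transfer proteins supply lipid, and a pair of ubiquitin-like conjugation systems attaches proteins of the ATG8 family to the growing membrane. Receptors that bind both ATG8 proteins and ubiquitin bring in cargo such as aggregates and damaged mitochondria. Neurons do not divide and cannot dilute such cargo, and mouse neurons that lack Atg5 or Atg7 degenerate.

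Several technical and cellular measures also differed between the ages. The 3′ minus 5′ difference of the control probe sets of Actb and Gapdh, which falls as labelled RNA reaches further along a transcript, had a mean of 3.47, 2.15 and 1.98 on the log2 scale at 2, 10 and 18 months. For the poly-A transcripts spiked in as controls, the mean log2 value was 5.75, 6.03 and 6.48 at the same ages. Among marker lists, the mean log2 value of 6 microglial genes lay between 8.25 and 8.82 at 18 months, against 7.79 to 8.15 at 2 months, with P2ry12 called as higher. That of 6 neuronal genes lay between 12.33 and 12.47 at 18 months, against 11.75 to 12.04 at 2 months (3 called as higher, 1 as lower). The 6 astrocyte genes ran from 11.34 to 11.62 at 18 months, against 11.09 to 11.17 at 2 months, with none called. The 8 dopaminergic genes, among them Th, ran from 12.32 to 12.42 at 18 months, against 11.98 to 12.21 at 2 months, and Th was called as higher. Lists for oligodendrocytes, vessels and choroid plexus overlapped between 18 and 2 months, with 1 gene called as higher, Clic6 of the choroid plexus list. In such bulk tissue, a change in the number of cells of a type and a change in RNA per cell cannot be told apart. The part of the poly-A controls and of the marker lists in the results was not tested. The 3′ minus 5′ difference was used as a covariate in a further fit.

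Between 2 and 18 months, autophagy probe sets changed in both directions. Higher at 18 months, at a single probe set each, were Nbr1 and Sqstm1, which encode cargo receptors, and Pik3c3, the catalytic subunit of the lipid kinase. So were Map1lc3b and Gabarapl2 of the ATG8 family, and Atg5 and Atg16l2 of the conjugation machinery. Lower were Wipi1, a phosphoinositide-binding protein, at 2 probe sets, and a single probe set of Wdfy3, a large scaffold for aggregate clearance. A probe set of the protease gene Atg4c and a weak probe set of Atg13 were also lower. At the probe set with the highest mean, Nbr1 (log2 change 0.13), Map1lc3b (−0.21), Wdfy3 (0.21) and Atg13 (−0.27) were not called. Calls required both an adjusted p below 0.05 (limma, Benjamini-Hochberg over the 45037 probe sets) and a change above 1.3-fold. By this rule 12 of 90 probe sets (13.3%, in 11 genes) were called, against 7.46% of all probe sets on the array. There were 7 higher (7.78%, against 4.55% of all) and 5 lower (5.56%, against 2.91% of all). With each array centred on its median, 7 were higher and 2 lower, and over the array 2528 were higher and 927 lower, against 2047 and 1312 without centring. In a fit of the 22519 probe sets at or above the median level, 10 of 62 autophagy probe sets were called, against 14.4% of all.

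**Figure D1:**
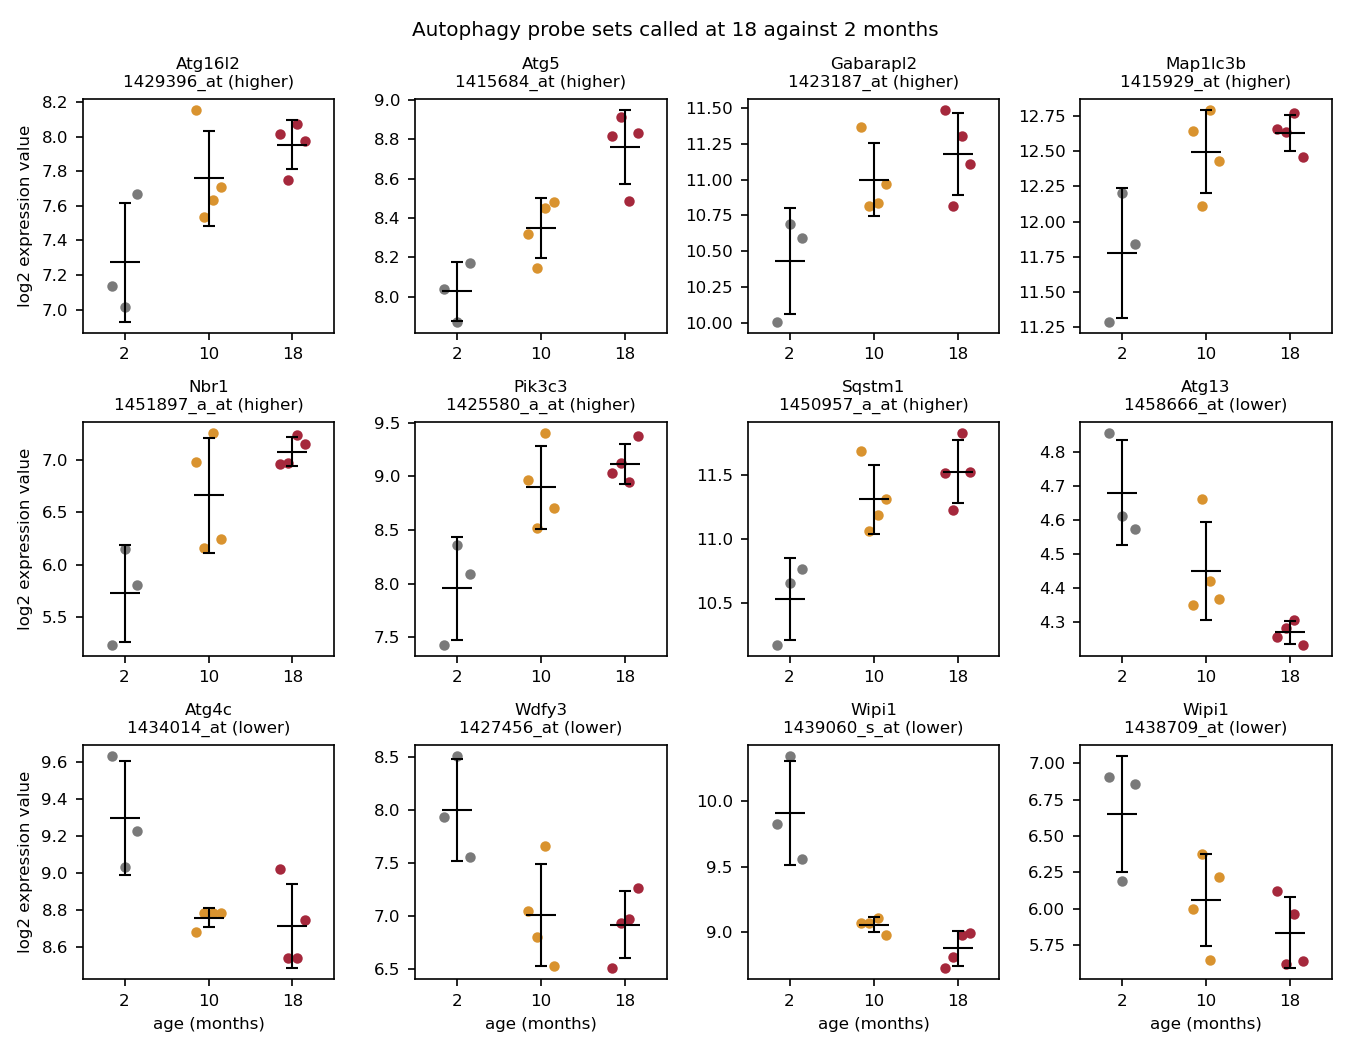
Log2 expression values of the 12 called autophagy probe sets by age in months. Points are samples (n = 3, 4 and 4), horizontal bars are means and error bars are SD; in each panel the 18 months samples lie wholly above (7 panels) or wholly below (5 panels) the 2 months samples.

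The median log2 change of the 90 probe sets between 18 and 2 months was −0.04, against −0.06 over all probe sets. Of the 90, 43 were above 0 and 47 below, against 18190 above and 26847 below over all probe sets. At the brightest probe set of each gene, that with the highest mean, the median was 0.18 for the 38 autophagy genes, against −0.02 for 18193 genes. Here 25 of the 38 were above 0, against 8423 of the 18193. The ranges of the 18 and 2 months samples did not overlap in 27 of 90 probe sets (30%, against 23.6% of all). Of these, 11 were higher at 18 months (12.2%, against 10.4% of all) and 16 lower (17.8%, against 13.1% of all).

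**Figure D2:**
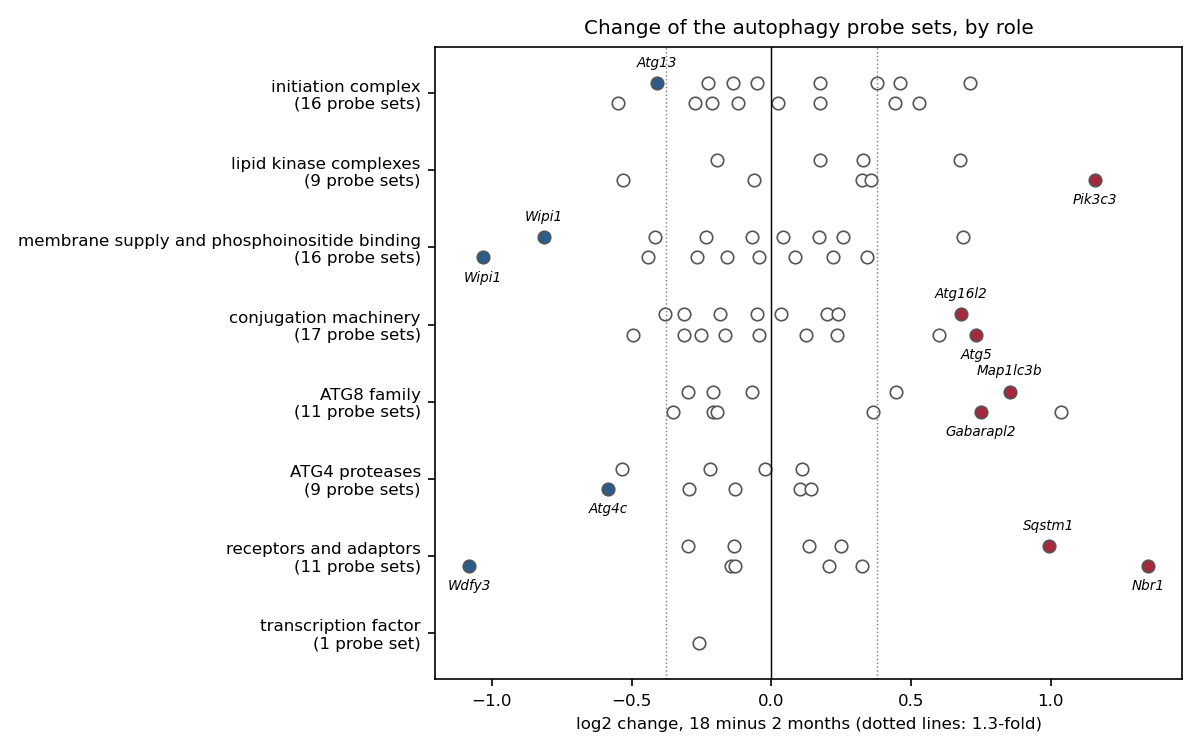
Log2 change at 18 against 2 months of each of the 90 autophagy probe sets, in rows by the role of the gene. Filled points were called (red higher, blue lower, labelled with the gene), open points were not, and dotted lines mark 1.3-fold; called points ran from −1.08 for Wdfy3 to 1.35 for Nbr1, and no row held more than 3.

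Cargo receptors and adaptors held the called probe sets with the largest changes in each direction. Sqstm1 encodes p62, which binds ubiquitin and ATG8 proteins and is itself degraded by autophagy. Its brightest probe set (1450957_a_at) read 10.17, 10.66 and 10.77 at 2 months, 11.69, 11.07, 11.19 and 11.31 at 10 months, and 11.52, 11.23, 11.83 and 11.53 at 18 months. All samples of both later ages lay above all 2 months samples. It rose 1.99-fold at 18 against 2 months (log2 change 0.99 ± 0.19 SE, limma adjusted p = 0.013, n = 4 and 3). The other probe set of Sqstm1 (1444021_at), at a low mean of 4.92, gave −0.30 ± 0.12 and was not called (adjusted p = 0.155). There all samples of both later ages lay below all 2 months samples. Its change at 10 against 2 months was −0.41 ± 0.12 (adjusted p = 0.113). Without 2 months replicate 1 the call for Sqstm1 was lost (0.81, adjusted p = 0.0825), and it was kept when any other array was left out.

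Nbr1 encodes a receptor related to p62 that also takes part in aggregate clearance. At its weaker probe set (1451897_a_at) it read 5.23, 6.14 and 5.80 at 2 months, 6.98, 6.15, 7.26 and 6.24 at 10 months, and 6.96, 6.97, 7.23 and 7.15 at 18 months. The 18 months samples lay close together above all 2 months samples, while those at 10 months were spread over more than 1 unit. This probe set rose 2.55-fold (1.35 ± 0.27, adjusted p = 0.0161). The brightest probe set (1448343_a_at) behaved differently, with 12.37, 13.02 and 12.32 at 2 months, 12.50, 12.43, 13.22 and 12.20 at 10 months, and 12.38, 13.07, 12.38 and 12.98 at 18 months. Its groups overlapped throughout (0.13 ± 0.27, adjusted p = 0.812). Without 2 months replicate 1 the weaker probe set gave 1.10 and was not called (adjusted p = 0.101).

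Wdfy3 encodes ALFY, which links p62-bound aggregates to the autophagosome. Of its 5 probe sets, 1427456_at read 7.94, 8.51 and 7.56 at 2 months, 7.05, 6.81, 7.67 and 6.53 at 10 months, and 6.51, 6.94, 6.98 and 7.27 at 18 months, and fell by 1.08 ± 0.28 (adjusted p = 0.0402). The brightest (1428517_at) read 11.56, 11.36 and 11.66 at 2 months, 11.55, 11.09, 11.61 and 11.46 at 10 months, and 11.77, 11.68, 11.66 and 11.82 at 18 months. There the 18 months samples overlapped with those at 2 months and the change was 0.21 ± 0.13 (adjusted p = 0.391). The 3 remaining probe sets, with means from 4.46 to 5.24, gave −0.13 to −0.14 and were not called. The call at 1427456_at was lost when any 1 of the 18 months arrays, 2 months replicate 1 or 2 or 10 months replicate 1 was left out (changes from −1.20 to −0.83 over all 12 arrays left out in turn). Tollip, an adaptor that binds ubiquitin, was not called at either probe set (0.25 ± 0.13 and 0.32 ± 0.15, adjusted p = 0.263 and 0.22).

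In the ATG8 family, 2 of 11 probe sets were called, both higher. These small ubiquitin-like proteins are attached to a lipid of the autophagosome membrane, and lipid-bound LC3 is the usual marker of autophagosomes. Map1lc3b, which encodes LC3B, read 11.29, 12.21 and 11.84 at 2 months, 12.64, 12.11, 12.80 and 12.43 at 10 months, and 12.66, 12.64, 12.77 and 12.46 at 18 months at probe set 1415929_at. This was 1.81-fold higher at 18 than at 2 months (0.85 ± 0.21, adjusted p = 0.0322). At its brightest probe set (1415928_a_at) it read 13.37, 13.20 and 13.15 at 2 months, 12.90, 13.09, 13.21 and 12.90 at 10 months, and 12.93, 13.10, 12.98 and 13.12 at 18 months. Here all 18 months samples lay below all 2 months samples, with a change of −0.21 ± 0.11 that was not called (adjusted p = 0.289). The 2 others gave −0.19 ± 0.36 (1415930_a_at) and −0.21 ± 0.12 (1428024_at). The call at 1415929_at was lost when any 1 of the 18 months arrays, 2 months replicate 1 or 10 months replicate 4 was left out, with changes from 0.61 to 1.07 over the 12 arrays left out in turn.

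Gabarapl2, also known as GATE-16, read 10.00, 10.69 and 10.59 at 2 months, 11.37, 10.82, 10.84 and 10.97 at 10 months, and 11.49, 10.81, 11.30 and 11.11 at 18 months (1423187_at). All later samples lay above those at 2 months, and the rise at 18 months was 1.68-fold (0.75 ± 0.21, adjusted p = 0.0488). Its other probe set (1441376_at) lay wholly lower at 18 than at 2 months, with −0.35 ± 0.13 (adjusted p = 0.12). The call was kept in 5 of 12 fits that left out 1 array, those without 2 months replicate 3 or 4, 10 months replicate 1 or 3, or 18 months replicate 2. Without 2 months replicate 1 the change was 0.54.

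The other members of the family were not called. Gabarap read 10.54, 10.49 and 11.004 at 2 months, 11.91, 11.69, 10.57 and 11.37 at 10 months, and 11.45, 10.81, 11.34 and 10.92 at 18 months, with overlap between all ages (0.45 ± 0.28, adjusted p = 0.379). Gabarapl1 read 12.95, 13.37 and 13.19 at 2 months, 13.51, 13.28, 13.80 and 13.47 at 10 months, and 13.27, 13.72, 13.43 and 13.73 at 18 months at its brightest probe set (0.36 ± 0.16, adjusted p = 0.197). Its second probe set gave a change as large as 1.04 ± 0.37, but with overlapping samples (adjusted p = 0.11). Map1lc3a, which encodes LC3A, read 13.81, 13.76 and 13.70 at 2 months, 13.61, 13.69, 13.47 and 13.57 at 10 months, and 13.45, 13.38, 13.57 and 13.43 at 18 months. At this probe set (1447883_x_at) every 18 months sample was lower than every 2 months sample, although the small change did not pass (−0.30 ± 0.09, adjusted p = 0.0784). The other probe set of Map1lc3a (1451290_at), at a mean of 10.9, overlapped between 18 and 2 months (−0.07 ± 0.24, adjusted p = 0.898). Probe sets of such closely related genes may share signal, and those whose names end in _s_at or _x_at are marked by the manufacturer as able to detect other transcripts.

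Among the 4 ATG4 proteases, which trim ATG8 proteins before they are attached and later release them, Atg4c fell. Its brightest probe set (1434014_at) read 9.63, 9.03 and 9.23 at 2 months, 8.68, 8.79, 8.79 and 8.79 at 10 months, and 9.02, 8.54, 8.54 and 8.75 at 18 months. All later samples lay below those at 2 months, by a margin of less than 0.05 for 18 months replicate 1. The change was −0.58 ± 0.15 at 18 against 2 months (adjusted p = 0.0429). The other probe set of Atg4c, at a low mean of 4.27, gave −0.53 ± 0.21 (adjusted p = 0.145). The call was kept without 2 months replicate 2 or 4, 10 months replicate 2 or 3, or 18 months replicate 1, and lost without each of the other 7 arrays (changes from −0.71 to −0.42). The 7 probe sets of Atg4a, Atg4b and Atg4d ranged from −0.30 to 0.14 and none was called.

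The conjugation machinery joins ATG12 to ATG5, with ATG16L1 as partner, and loads ATG8 proteins onto lipid through ATG7 and ATG3. Atg5 rose at its brightest probe set (1415684_at), which read 8.04, 7.87 and 8.17 at 2 months, 8.32, 8.15, 8.45 and 8.48 at 10 months, and 8.82, 8.91, 8.48 and 8.83 at 18 months. The samples at 18 months lay above those of both earlier ages, and the level was 1.66-fold that at 2 months (0.73 ± 0.13, adjusted p = 0.0106). Both other probe sets were near 0 (−0.05 ± 0.13 and 0.04 ± 0.11). Without 2 months replicate 1 the change was 0.74 and was no longer called (adjusted p = 0.0606).

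Atg16l2, a relative of Atg16l1, rose 1.60-fold (0.68 ± 0.18, adjusted p = 0.0434). It read 7.14, 7.02 and 7.67 at 2 months, 8.16, 7.54, 7.63 and 7.71 at 10 months, and 8.02, 7.75, 8.07 and 7.97 at 18 months (1429396_at), so that the nearest samples of 18 and 2 months were less than 0.1 apart. The second probe set gave −0.18 ± 0.21. The call was lost when any 1 of the 18 months arrays, 2 months replicate 1 or 2 or 10 months replicate 4 was left out (changes from 0.55 to 0.75). Atg7, the activating enzyme of both systems, read 8.496, 8.27 and 8.67 at 2 months, 8.31, 8.39, 7.78 and 8.34 at 10 months, and 8.36, 7.94, 8.15 and 7.94 at 18 months at its brightest probe set, and was not called (−0.38 ± 0.17, adjusted p = 0.202). Its other probe sets gave −0.05, 0.24 and −0.16. Neither Atg3 (0.60 ± 0.28 at the brightest probe set, adjusted p = 0.216), Atg10 (−0.50 ± 0.28, adjusted p = 0.324), Atg12 nor Atg16l1 was called.

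The promoters of these genes are shown because 3 genes of this group held the hexamer CACGTG, the core of the element that TFEB binds in lysosomal and autophagy genes. RefSeq promoters (GRCm38.p6, 250 bases before to 50 after the start) were at hand for 31 of the 38 genes. CACGTG, which reads the same on both strands, occurred in 4 of 36 promoters of autophagy genes (11.1%), against 7.15% of 32851 promoters of all genes. The 4 genes were Atg3, Atg5, Atg7 and Atg14, and only Atg5 among them was called. A match in this window is a description of the sequence and not a measured site. The stretches around the hexamers of Atg5 (chr10:44268288-44268338), Atg3 (chr16:45158698-45158800) and Atg7 (chr6:114670927-114671006) are all on the plus strand, given 5′ to 3′ with CACGTG in capitals.
Atg5: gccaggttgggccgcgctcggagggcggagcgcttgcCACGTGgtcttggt
Atg3: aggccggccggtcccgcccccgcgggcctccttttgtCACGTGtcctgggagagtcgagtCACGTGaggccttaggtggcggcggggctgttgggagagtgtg
Atg7: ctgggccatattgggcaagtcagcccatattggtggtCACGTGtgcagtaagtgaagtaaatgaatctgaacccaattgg

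Tfeb itself, the transcription factor that switches on lysosomal and autophagy genes when it enters the nucleus, was represented by 1 probe set. It read 8.26, 8.18 and 8.14 at 2 months, 8.03, 8.36, 7.69 and 8.29 at 10 months, and 8.06, 7.93, 8.13 and 7.63 at 18 months. The 18 months samples were all lower than those at 2 months, by a margin that did not pass the test (−0.26 ± 0.17, adjusted p = 0.39).

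Of the lipid kinase complexes, which make the phosphatidylinositol 3-phosphate that recruits later factors, Pik3c3 was called. Pik3c3, the catalytic subunit also known as VPS34, read 7.43, 8.36 and 8.09 at 2 months, 8.97, 8.52, 9.41 and 8.70 at 10 months, and 9.03, 9.12, 8.94 and 9.37 at 18 months at its only probe set. All later samples lay above those at 2 months, and the level at 18 months was 2.23-fold higher (1.16 ± 0.24, adjusted p = 0.0168). Without 2 months replicate 1 it gave 0.89 and was not called (adjusted p = 0.0946). Pik3r4, the regulatory subunit VPS15, gave −0.53 ± 0.18 with no overlap of 18 and 2 months, but did not pass (adjusted p = 0.091).

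Becn1 encodes beclin 1, the scaffold of these complexes. At its brightest probe set it read 10.58, 11.10 and 10.57 at 2 months, 10.89, 10.45, 11.57 and 10.64 at 10 months, and 10.88, 11.36, 10.85 and 11.34 at 18 months, and the ages overlapped (0.36 ± 0.25, adjusted p = 0.435). The other 4 probe sets of Becn1 ranged from −0.19 to 0.67 and none was called. Atg14 (0.33 ± 0.23) and Uvrag (0.33 ± 0.13), which direct the kinase to autophagosomes or to endosomes, were not called either (adjusted p = 0.438 and 0.156).

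Wipi1 fell at 2 of its 6 probe sets, and was the member with the smallest adjusted p. WIPI proteins bind phosphatidylinositol 3-phosphate on the forming autophagosome. The brightest probe set (1439060_s_at) read 9.83, 10.35 and 9.56 at 2 months, 9.07, 9.07, 9.11 and 8.98 at 10 months, and 8.73, 8.81, 8.98 and 8.999 at 18 months. The later ages lay close together, and wholly below the 2 months samples. It fell by 1.03 ± 0.16 at 18 against 2 months (adjusted p = 0.00637) and the call was kept with each of the 12 arrays left out in turn (changes from −1.07 to −0.81).

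A second probe set of Wipi1 (1438709_at) read 6.91, 6.19 and 6.86 at 2 months, 5.996, 6.37, 5.65 and 6.22 at 10 months, and 6.12, 5.62, 5.97 and 5.64 at 18 months, and fell by 0.82 ± 0.22 (adjusted p = 0.0426). This call was lost without 2 months replicate 1, 10 months replicate 1 or 4, or 18 months replicate 2, 3 or 4 (changes from −1.04 to −0.69). Of the others, 3 at means from 4.71 to 5.62 gave −0.44 to −0.23. The second brightest of the gene, 1427323_s_at at a mean of 7.72, gave 0.04 ± 0.11, and none of these was called. Wipi2, the other WIPI gene in the rule, ranged from −0.07 to 0.34 over 3 probe sets with no call. Atg9a and Atg9b, which encode the membrane protein of the vesicles that seed the autophagosome, ranged from −0.16 to 0.22. Atg2a and Atg2b, which encode lipid transfer proteins, ranged from −0.27 to 0.69 (largest for 1424702_a_at of Atg2b, adjusted p = 0.116), also without a call.

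In the initiation complex, 1 of 16 probe sets was called. It belonged to Atg13 (1458666_at), which encodes a regulatory subunit of the ULK kinases. This probe set had a mean of 4.45, below the lowest lower quartile of the arrays. It read 4.85, 4.61 and 4.57 at 2 months, 4.35, 4.66, 4.42 and 4.37 at 10 months, and 4.26, 4.28, 4.31 and 4.23 at 18 months, and fell by 0.41 ± 0.11 (adjusted p = 0.0442). The call was kept only without 2 months replicate 4 or 10 months replicate 2 or 3 (changes from −0.44 to −0.32 over the 12 arrays left out). Its brighter probe sets differed in sign, with −0.27 ± 0.19 at 1423794_at (adjusted p = 0.434) and 0.44 ± 0.14 at 1423793_at (adjusted p = 0.0757).

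Ulk1 and Ulk2 encode the kinases themselves. Ulk1 read 9.42, 9.42 and 9.67 at 2 months, 10.00, 9.62, 9.75 and 9.80 at 10 months, and 9.90, 9.52, 10.15 and 9.95 at 18 months at its brightest probe set, and did not pass (0.38 ± 0.15, adjusted p = 0.154). Ulk2 read 9.16, 8.90 and 9.09 at 2 months, 9.16, 8.61, 9.59 and 9.0 at 10 months, and 9.67, 9.49, 9.32 and 9.57 at 18 months. Here the 18 months samples lay above those at 2 months, with 0.46 ± 0.19 (adjusted p = 0.167), and the next probe set of Ulk2 gave 0.71 ± 0.22 (adjusted p = 0.0762). The others of both genes ran from −0.21 to 0.53. Atg101, Rb1cc1, which encodes the scaffold FIP200, and Ambra1, a regulator of beclin 1, ranged from −0.55 to 0.18 over 7 probe sets, none of them called.

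Probe sets of 1 gene often differed in the sign of their change. Only Wipi1 had more than 1 called probe set, and both of its calls were lower. Of 24 autophagy genes with at least 2 probe sets at or above a mean of 4.48, the lowest lower quartile of the arrays, 6 had all of them on the same side of 0 at 18 against 2 months and 18 had both signs (75%, against 61.3% of 7407 such genes on the array). Of the 11 genes with a call, all but Pik3c3 had further probe sets, and for Map1lc3b, Gabarapl2, Sqstm1 and Atg16l2 all of these were below 0 while the called one was above. Each called probe set was paired with every other probe set of its gene at or above that level, which gave 24 pairings. Of these, 13 had the same sign and 11 the opposite. Wipi1 entered from each of its called probe sets and gave most of the same-sign pairings. For the other genes together, most pairings were of opposite sign. In 7 of the 12 calls the called probe set was the brightest of its gene.

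**Figure D3:**
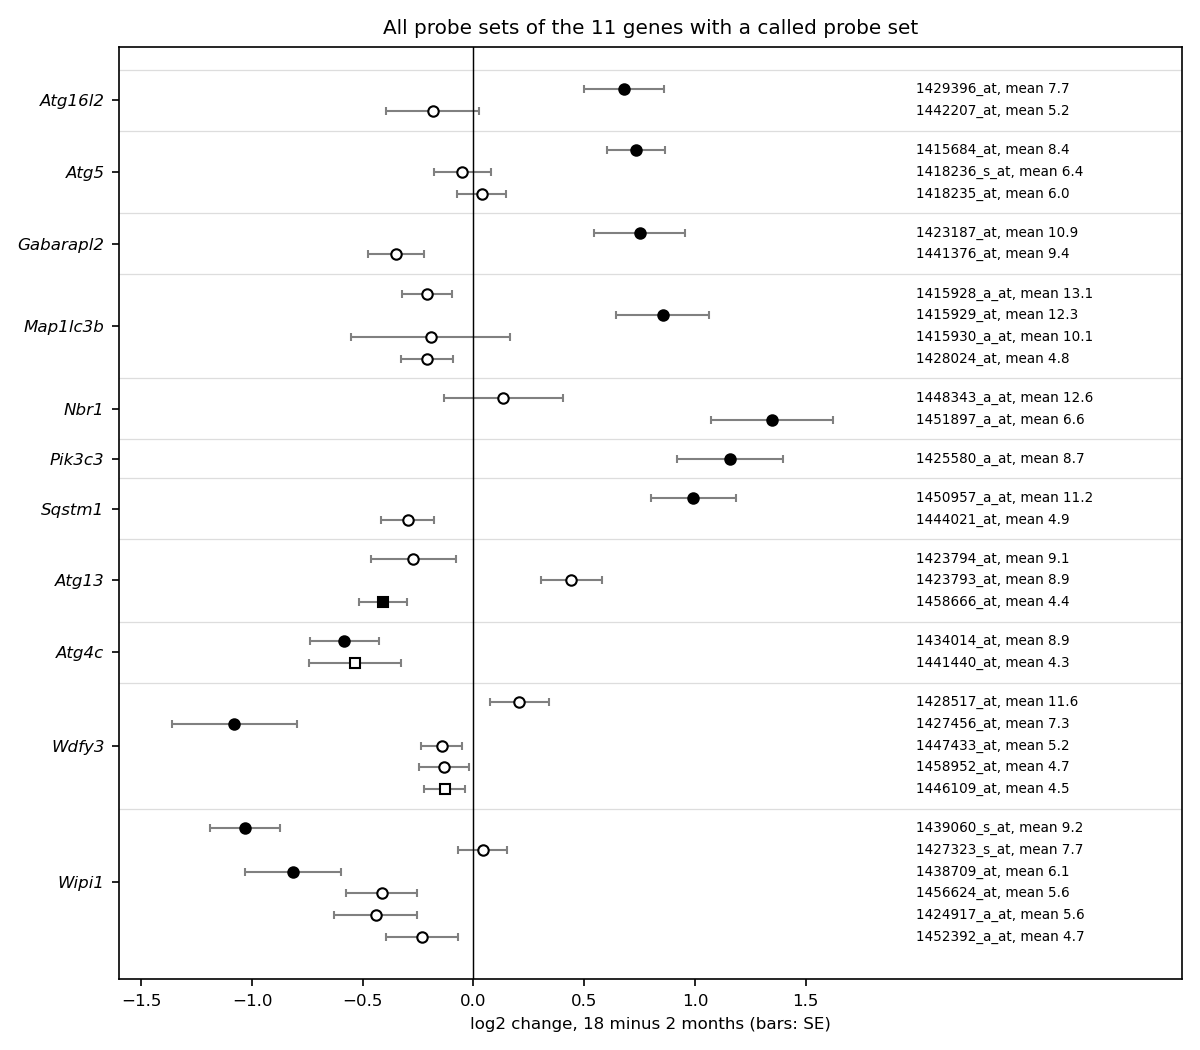
Log2 change at 18 against 2 months of all probe sets of the 11 genes with a call, with SE as horizontal bars; in each gene the brightest probe set stands on top, with its ID and mean level on the right. Filled symbols were called, and squares have a mean below the lowest lower quartile of the arrays. For Map1lc3b the called probe set is at 0.85 and the 3 others lie between −0.21 and −0.19.

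The 3′ minus 5′ difference had a mean of 1.98 at 18 months, against 3.47 at 2 months, and the calls changed when it was added to the fit. It ran from 3.29 to 3.63 at 2 months, wholly above 10 months (1.69 to 2.44) and 18 months (1.64 to 2.17). Its part and that of age therefore cannot be told apart. The changes fitted with it rest on how values varied with it within an age. When the fit held this difference as a covariate, 0 of the 12 probe sets were called, and 0 of the 45037. The median SE of the 12 was then 0.479, against 0.199 without the covariate. The median size of their change was 0.24, against 0.83. In this fit Wdfy3 (−2.14 ± 0.74), Wipi1 at 1439060_s_at (−1.53 ± 0.43) and Atg5 (1.10 ± 0.36) had larger changes than before in the same direction. Smaller changes of the same sign were fitted for Pik3c3 (0.34 ± 0.63), Wipi1 at 1438709_at (−0.12 ± 0.58), Atg13 (−0.11 ± 0.30) and Atg4c (−0.014 ± 0.40). For Sqstm1 (−0.22 ± 0.38), Nbr1 (−0.36 ± 0.56), Map1lc3b (−0.19 ± 0.50), Gabarapl2 (−0.26 ± 0.49) and Atg16l2 (−0.057 ± 0.46) the sign turned, with SE larger than the change. Without 2 months replicate 1, 1 of the 90 autophagy probe sets was called, that of Wipi1, and 0.939% of all probe sets.

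**Figure D4:**
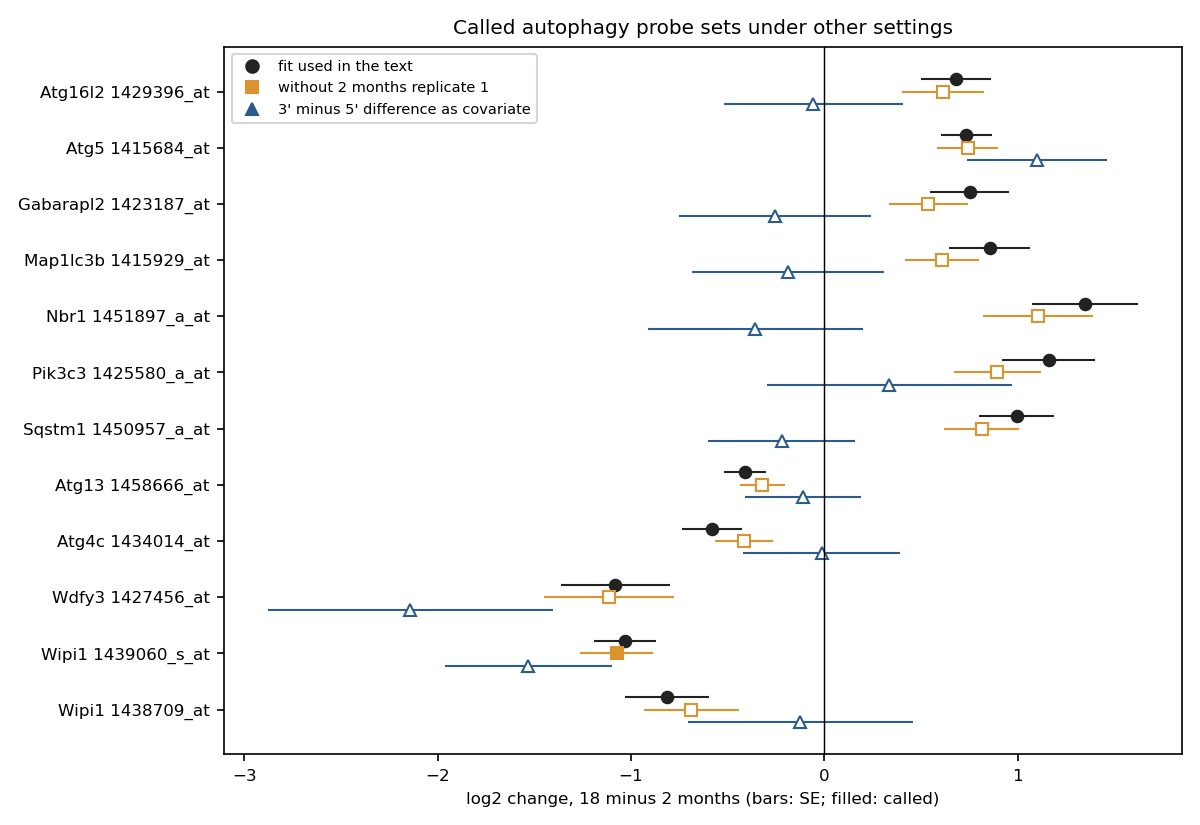
The 12 called probe sets by their log2 change (18 against 2 months), in the fit used in the text, without 2 months replicate 1, and with the 3′ minus 5′ difference as covariate; horizontal bars are SE and filled symbols were called. The covariate gave wider errors (median SE 0.479, against 0.199), and Wipi1 1439060_s_at was the probe set still called without 2 months replicate 1.

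Between 2 and 10 months, Wipi1 was the single autophagy gene called. Its brightest probe set fell by 0.85 ± 0.16 (adjusted p = 0.0392), with all 10 months samples between 8.98 and 9.11 and all 2 months samples at 9.56 or above. Thus 1 of 90 probe sets (1.11%) was called, against 1.36% of all probe sets. This call was lost without 2 months replicate 1 or 2, 10 months replicate 1 or 4, or any 1 of the 18 months arrays, which share the estimate of the spread. Next came Sqstm1 at its brightest probe set (0.78 ± 0.19, adjusted p = 0.0697) and Pik3c3 (0.94 ± 0.24, adjusted p = 0.0767), which were not called. Samples of 10 and 2 months did not overlap in 17 of 90 probe sets (18.9%, against 12.6% of all). Both later ages were set against the same young samples. Side by side, the change at 10 and at 18 months was 0.93 and 1.35 for Nbr1, 0.72 and 0.85 for Map1lc3b, 0.57 and 0.75 for Gabarapl2, 0.32 and 0.73 for Atg5, and −0.99 and −1.08 for Wdfy3.

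Between 10 and 18 months, 0 of 90 autophagy probe sets were called by limma, against 0.00222% of all (1 probe set), and the smallest adjusted p was 0.847. An unadjusted p under 0.05 was found for 4 of the 90 (4.44%, against 5.06% of all). The samples of these ages did not overlap in 6 of the 90 (6.67%, against 2.73% of all). Among them were the called probe sets of Atg5, higher by 0.41 ± 0.12, and Atg13, lower by 0.18 ± 0.10. Wdfy3 was among them with its brightest probe set, higher by 0.30 ± 0.12 at 18 months, and with a weak one (1446109_at) that was lower (−0.17 ± 0.09).

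Genes that act around this core were described in the same way, each at its brightest probe set. There 5.77% of 18193 genes were called as higher and 3.05% as lower at 18 against 2 months. In the fit of probe sets at or above the median level, 14% of the genes in it were called. Of 21 further receptors and mitophagy genes, 6 rose and 1 fell (median change 0.34, against −0.02 over all genes). The receptors Tax1bp1 (0.95 ± 0.14, adjusted p = 0.00554), Ncoa4 (1.20 ± 0.22, adjusted p = 0.0111) and Stbd1 (1.07 ± 0.26, adjusted p = 0.0297), which carry ubiquitinated cargo, ferritin and glycogen, were among those that rose. The mitophagy receptors Bnip3 (0.43 ± 0.12) and Fundc1 (0.58 ± 0.15) and the reticulum protein Atl3 (0.60 ± 0.15) also rose, while Usp30, a deubiquitinase that opposes mitophagy, fell by 0.55 ± 0.15 (adjusted p = 0.0491). Tax1bp1 was already higher at 10 than at 2 months (0.71 ± 0.14, adjusted p = 0.0418), where 1.0% of all genes were called as higher.

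Of 33 regulators of the TORC1 and AMPK kinases, which sense nutrients and energy upstream of ULK1, 2 rose and 3 fell (median 0.09). Tsc2, an inhibitor of TORC1, rose by 1.3 ± 0.29 (adjusted p = 0.0221), and Nprl3, part of a complex that restrains TORC1, by 0.57 ± 0.13. Camkk2, which activates AMPK, fell by 1.57 ± 0.24 (adjusted p = 0.00617), as did Lamtor1, a lysosomal anchor of TORC1 (−0.62 ± 0.15), and Deptor, which binds TOR (−0.47 ± 0.11).

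Of 24 other early factors, C9orf72 (0.54 ± 0.13) and Trp53inp2 (0.58 ± 0.16) rose and Tecpr1 fell (−0.54 ± 0.14), with a median of 0.14. Of 21 genes of fusion with the lysosome, Snapin (1.07 ± 0.14, adjusted p = 0.00438) and the tethering factor Vps41 (0.66 ± 0.16, adjusted p = 0.0337) rose and none fell (median 0.27). At 10 against 2 months Snapin was higher by 0.92 ± 0.14 (adjusted p = 0.0297). Of these 99 genes together, 17 were called at 18 against 2 months. This number was 3 without 2 months replicate 1, 5 without 2 months replicate 2 and 11 without 10 months replicate 1 or 4. It was between 7 and 9 when 1 of the 18 months arrays was left out, and 0 with the 3′ minus 5′ covariate. The share of all genes called was 8.82%, and it was 1.01% and 4.47% without 2 months replicates 1 and 2. This share was 6.7% and 6.42% without 10 months replicates 1 and 4, 5.04% to 5.42% with 1 of the 18 months arrays left out, and 0% with the covariate. In the fit of probe sets at or above the median level, 21 of the 99 were called, against 14% of the genes in it.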

How the data were processed

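RNA from the VTA was amplified in a two-cycle labelling assay and hybridised to Affymetrix mouse genome arrays. The authors summarised the scans by RMA and deposited 1 log2 value for each probe set and array. Besides RMA, limma 3.4.5 is named in the submitters' processing notes. Values of the autophagy probe sets were kept as deposited. Precision is limited by how few arrays there are, and since arrays are pools of mice, p-values reflect the variation among pools only.

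Control probe sets (64) were left out, and genes were named through the array's annotation. All 90 autophagy probe sets matched RefSeq (GRCm38.p6) by gene number, with no symbol changed. One model with a mean per age (lmFit, contrasts.fit and eBayes of limma 3.58.1, R 4.3.3) had no covariates. Adjusted p-values are Benjamini-Hochberg values over 45037 probe sets. Errors of log2 changes are SE of this fit. The script was tested on simulated data. The members, lists and tests were chosen with earlier results of these data known. Values per sample are given for every called probe set and for the brightest probe set of 16 core genes named by the rule (Optn, 1 of them, had none), and related genes are named where called. The 12 arrays as separate samples, a replicate block, median centring, the 3′ minus 5′ covariate, a filter at the median level, a variance trend, array weights, no fold threshold, pairs of ages alone, 1 probe set per gene and leaving out arrays were tried as alternatives.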

Additional observations from a re-analysis of the deposited data

Results flagged for a closer look

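Within an age, 2 of 46 sets of 4 samples held a value far from the other 3 among the probe sets described by sample, where chance gives about 1 in 20. At 10 months, Atg4c (1434014_at) read 8.68 in replicate 1, while the 3 other samples were listed with the same value of 8.79. Atg7 (1428610_at) read 7.78 in replicate 3 at 10 months, against 8.31 to 8.39 in the others.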

How the results depend on the processing

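The 12 calls at 18 against 2 months of 90 probe sets, where 7.46% of all were called, became 7 with the 12 arrays as separate samples and the replicate number as a block (5.66% of all), 7 without both near-identical arrays (6.99%), 7 of 38 with 1 probe set per gene (9.84%) and 0 with the 3′ minus 5′ covariate (0%). They ranged from 1 (without 2 months replicate 1, 0.939% of all) to 14 (without 10 months replicate 3, 11.8%) when 1 array was left out, with 5 or 6 without 10 months replicate 4 (5.41%) or 18 months replicate 2, 3 or 4 (4.30% to 4.33%). The single call at 10 against 2 months (1.36% of all) became 2 with separate arrays (2.17%), 10 with array weights (6.54%), and 0 with the replicate block (0.00666%), a variance trend (0.402%), the covariate or only these ages in the fit (0% each), and ranged from 0 to 4 with 1 array left out. No call was made between 18 and 10 months under any of these alternatives. The 17 calls among 99 related genes (8.82% of all genes) became 10 with the replicate block (6.72%), 9 with a variance trend (7.24%) and 0 with the covariate (3 to 22 with 1 array left out). Their 2 calls at 10 months became 0 with the replicate block, the covariate or only these ages, 1 with a variance trend, 5 without both near-identical arrays (3.07% of all genes) and 12 with array weights (7.21%; 0 to 5 with 1 array left out). Signs were followed for the 23 probe sets described by sample, and among these they turned only with the covariate. They turned for Sqstm1 (−0.22), Nbr1 (−0.36 and −0.16 at its probe sets), Map1lc3b 1415929_at (−0.19), Atg16l2 (−0.057) and Gabarapl2 (−0.26). The same was found for Becn1 (−0.21), Tfeb (0.10), Ulk1 (−0.37) and the brightest probe set of Wdfy3 (−0.049). The cause was not tested. Deviations of same-numbered arrays from the mean of their age correlated from −0.61 to 0.43 over 12 pairs. With so few arrays, this cannot tell whether the replicate numbers pair the arrays. Wipi1 1439060_s_at stayed called at 18 months under each alternative except the covariate.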
